A study of Homo sapiens with 5 samples.

Results

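Miapaca cells given an siRNA against the 3′ untranslated region of LYNX1 (3UTR siRNA) were compared with Miapaca cells given a non-targeting control siRNA, with 1 array for each. A gene was compared when its probe had a detection p-value under 0.01 on either array, the detection p-value being the deposited measure of whether a probe exceeds background. Where a gene had several probes, the one brightest on average across the 5 arrays of the series represented it. Of 20043 genes with a named probe, 10865 were compared, and 9273 of these were detected on both arrays. Genes at the limit lay close to background. RNASE13, just inside, read 118 units of bead intensity with the control siRNA and 93.1 with the 3UTR siRNA, and EFCC1, just outside, read 125 and 99.7.

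The series holds 5 Illumina BeadChip arrays from 2 established lines of human pancreatic ductal adenocarcinoma, Miapaca and BXPC3. Miapaca cells received control siRNA, an siRNA against the LYNX1 open reading frame (ORF) or the 3UTR siRNA, and BXPC3 cells received control or ORF siRNA. The labels give no genetic change in either line, so the groups differ by line and by transfected siRNA. The Miapaca cultures were transfected 24 h after seeding with 4 µl of lipofectamine RNAiMAX and siRNA at 60 pM, a unit that could not be checked, and were exposed for 72 h before RNA extraction. BXPC3 cells were given 200 nM with 14 µl of Xtreme gene9. Each group was 1 culture on 1 array, so no difference has an error estimate or a p-value, and precision is limited by the number of arrays. A gene is called higher or lower here by size alone, at 2-fold, which is 1 on the log2 scale.

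LYNX1 belongs to the Ly6 family of small proteins with a compact disulfide-rich fold and is anchored to the cell surface, where it binds nicotinic acetylcholine receptors and lowers their response to acetylcholine. An siRNA is loaded into an Argonaute protein and directs the cleavage of RNAs that match it, and RNAs that match only its seed can also be repressed. Bead arrays read each RNA through a short probe, usually near the 3′ end of a transcript. Different probes of a gene on the same pair of arrays therefore check the measurement of a difference, though not its spread between cultures.

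LYNX1 was not detected on any of the 5 arrays. Its probes read 104 and 103 units with the control siRNA and 83.1 and 90.2 with the 3UTR siRNA, beside fitted backgrounds of 99.5 and 92.4, so the knockdown could not be checked. The mean bead intensity of the control array was 1.35 times that of the 3UTR array (463 and 343), and 17419 and 16622 probes were detected. The part of this intensity gap in the results below was not tested. VIM, a mesenchymal filament protein, stood at log2 levels of 13.94 and 14.05, KRT8 at 11.86 and 12.28, and EPCAM, CDH1, CDKN2A and MTAP were not detected on these arrays. CDKN2A and MTAP are known to be deleted in MIA PaCa-2. None of 11 pancreatic acinar and endocrine markers was detected on either array. Of 8 fibroblast markers 1 was detected with the control and 2 with the 3UTR siRNA (summed bead intensity 2697 and 2635), of 6 endothelial markers 1 and 1 (627 and 593), and of 9 blood cell markers 2 and 3 (1432 and 1118).

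Of the 10865 genes, 459 were at least 2-fold higher with the 3UTR siRNA (4.22%) and 504 at least 2-fold lower (4.64%). These calls hold 368 higher and 404 lower genes detected on both arrays. A further 90 higher and 100 lower genes were detected on 1 array, and their difference is a lower bound, set against the lowest detected signal of the other array. HMOX2, which was higher but detected on the dimmer array, has no bound. The lower side reached further. At 4-fold or more there were 27 lower and 3 higher genes, and at 8-fold or more 3 lower genes and none higher. Differences lay on both sides of 0 in equal shares, with 5434 genes above the control (50%) and 5425 below (49.9%). Quantile normalization brings the arrays to the same distribution, so this balance follows from the scaling. Scaling by the median of all probes instead moved the median of all genes from 0.00 to −0.46 and gave 84 higher and 1982 lower genes, and scaling by the median of probes detected on all arrays moved it to 0.15 and gave 964 and 369.

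The spread of the differences changed little with signal until the brightest genes. The middle 95% of genes detected on both arrays lay between −1.18 and 1.11. When these genes were divided into 5 equal groups by mean level, the SD of the differences was 0.56, 0.62, 0.63, 0.59 and 0.48 from dimmest to brightest. In the brightest group 1.94% were called higher and 2.43% lower, against 4.91% and 5.98% in the middle group. For comparison, the ORF siRNA in Miapaca gave 553 higher (5.07%) and 600 lower genes (5.51%) of 10899, read against the same control array, and in BXPC3 it gave 71 (0.631%) and 52 (0.462%) of 11252.

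**Figure D1:**
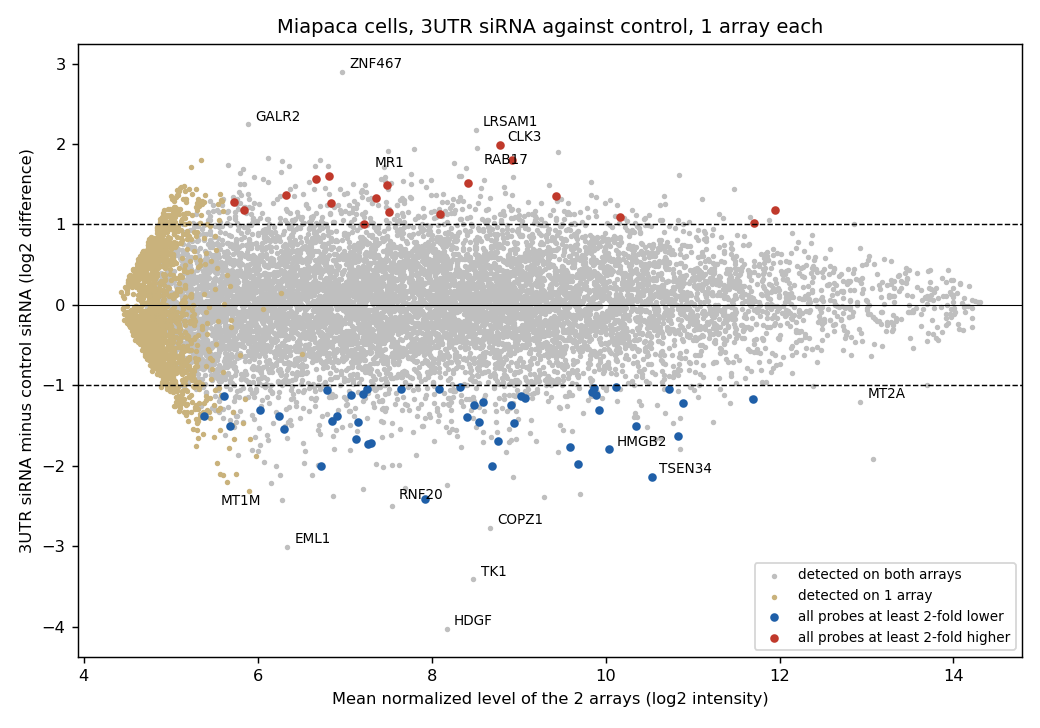
Log2 difference of each gene (3UTR siRNA minus control siRNA, vertical axis) against its mean normalized log2 level on the 2 arrays. Dashed lines mark 2-fold, blue points the 45 genes whose detected probes were all at least 2-fold lower and red points the 18 whose probes were all at least 2-fold higher, and HDGF lies lowest at −4.03 and ZNF467 highest at 2.90.

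Most 2-fold calls could not be checked by a further probe, and where they could, agreement was partial. Among the 10865 genes, 2862 had at least 2 probes detected on either array. Of these, 116 were called higher by their brightest probe, and in 18 of the 116 each detected probe was at least 2-fold higher (15.5%). In 82 all probes had the same sign, and in 34 a probe lay at 0 or on the other side. Of 150 called lower, 45 were at least 2-fold lower by each probe (30%), 120 had the same sign throughout and 30 had a probe at 0 or above. Read against all 2862 genes, the calls shared by all probes made up 0.629% higher and 1.57% lower. Calls of lower expression were thus carried by all probes more often than calls of higher expression, in these arrays and without a test.

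Restricting the probes to those detected on both arrays left the same picture, with 18 of 86 higher genes and 39 of 103 lower genes past 2-fold by each probe. Across the 1891 genes with exactly 2 such probes, the probe differences had a Pearson correlation of 0.50 and a Spearman correlation of 0.46. These points share the same pair of arrays and are genes, not replicates. The median gap between the probes of a gene was 0.36 on the log2 scale, and in 95% of pairs it was at most 1.18. The probes had the same sign in 1239 pairs (65.5%).

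**Figure D2:**
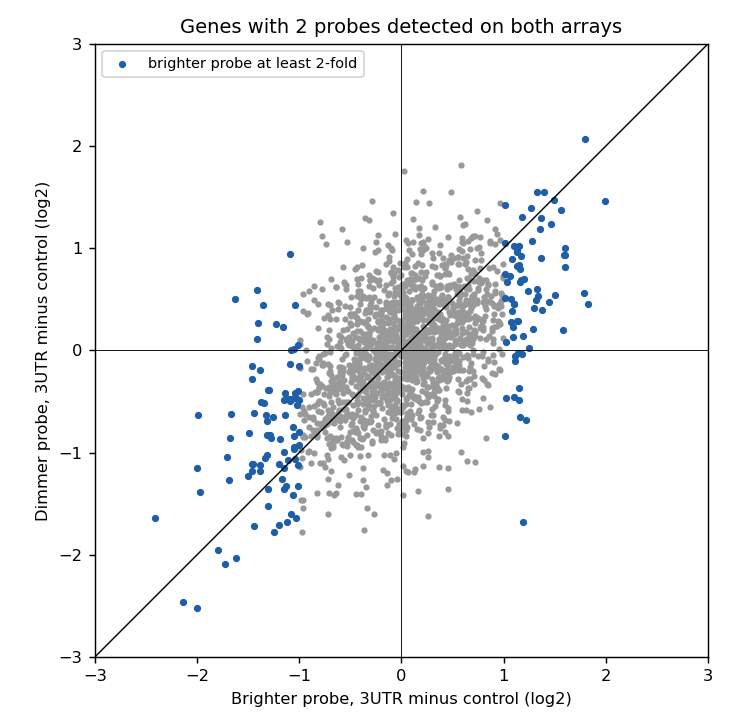
Log2 difference (3UTR minus control) by the dimmer probe (vertical axis) against that by the brighter probe (horizontal axis) for the 1891 genes with 2 probes detected on both arrays. Blue points are genes whose brighter probe was at least 2-fold different, the diagonal marks equal differences, and blue points spread widely along the vertical axis, with a median gap of 0.36 over all pairs.

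The genes lower by all of their probes included several with large and closely matching differences. TSEN34, a subunit of the endonuclease that removes introns from tRNA precursors, stood at a log2 level of 11.60 (control), 11.61 (ORF) and 9.46 (3UTR). It was 4.39-fold lower than the control, and its probes gave −2.13 and −2.46. By the brightest probe the ORF array therefore matched the control, while the other probe stood at 11.00, 10.58 and 8.54 on the control, ORF and 3UTR arrays. RYK, a Wnt-binding receptor of the tyrosine kinase family, showed the same order, with 10.48, 10.84 and 8.71 on the control, ORF and 3UTR arrays. Its 3 probes gave −1.73, −1.77 and −1.93, the closest match among the genes with 3 probes. ALDH7A1, an aldehyde dehydrogenase of lysine breakdown, stood at 11.65, 11.66 and 10.02, with probes at −1.62 and −2.04. TCTN3, a protein of the ciliary transition zone, stood at 7.07, 7.47 and 5.53, with 3 probes between −1.54 and −1.90. LYPLA1, a thioesterase that removes palmitate from proteins, stood at 7.96, 8.28 and 6.29. Its other probe, detected on the control but not the 3UTR array, has a bound of −1.49. By the brightest probe the ORF array lay at or above the control in these 5 genes, and in RYK it did so by all 3 probes. Another probe gave an ORF difference of −0.43 for TSEN34, −0.15 for ALDH7A1, −0.43 for TCTN3 and −0.67 for LYPLA1. By each probe of the 5 genes the 3UTR array lay below the ORF array, by −0.86 to −2.14 as measured.

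Other genes of this group were low on both LYNX1 siRNA arrays, each read against the shared control array. HMGB2, a DNA-bending chromatin protein abundant in dividing cells, stood at 10.94 (control), 9.25 (ORF) and 9.15 (3UTR), and its probes gave −1.80 and −1.95 for the 3UTR siRNA. AP1S2, a subunit of the AP-1 clathrin adaptor, stood at 8.13, 6.46 and 6.40. PHLDB2, which helps anchor microtubules at the cell cortex, stood at 10.66, 9.28 and 8.69. By the brightest probe the control array lay above both siRNA arrays by more than 2-fold in each of these, and another PHLDB2 probe gave −0.88 for the ORF siRNA. CEP41, a centrosome and cilium protein, stood at 9.13, 7.74 and 6.72, with probes at −2.42 and −1.64 for the 3UTR siRNA. RGS5, which speeds the shut-off of G protein signalling, was 2.73-fold lower and GSKIP, a binding partner of GSK3, 2.60-fold lower, with ORF differences of −1.32 and −1.33. The other GSKIP probe, detected on the control but not the 3UTR array, has a bound of −1.80. PROSER1 was 4.01-fold lower, with its other probe at −2.52, against −0.52 with the ORF siRNA.

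The remaining genes lower by all probes ranged in their least affected probe from −1.02 to −1.31. MCM3, a subunit of the replicative helicase, stood at 12.28 and 11.11 and was 2.24-fold lower, with probes at −1.17 and −1.26. TFDP1, the DNA-binding partner of E2F factors, was 2.83-fold lower. GGH, a lysosomal enzyme that trims folate polyglutamates, was 2.75-fold lower.

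KANK4, of a family that links adhesion sites to the cortical cytoskeleton, had the largest difference on the higher side that all probes shared. It stood at 8.03 (control), 9.61 (ORF) and 9.83 (3UTR), and was 3.47-fold higher, with probes at 1.80 and 2.07. CLK3, a kinase that phosphorylates SR splicing factors, stood at 7.78, 8.64 and 9.78 and was 3.98-fold higher. Its dimmer probe gave 1.46. ATG4A, a protease that processes ATG8 proteins in autophagy, stood at 6.74, 7.89 and 8.24, and its probes gave 2.82-fold and 1.47 on the log2 scale. In these 3 genes the ORF array lay between the control and the 3UTR array. SNX6, a sorting nexin of retromer-linked transport, was 2.86-fold higher, with a difference of 0.85 for the ORF siRNA. Its other probe has a bound of 1.39 and entered only through the 3UTR array, where it was high.

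In ANG, RBM47, LAMA2 and TMEM44 the 3UTR array was high and the ORF array lay near the control by the brightest probe. ANG, the ribonuclease angiogenin, stood at 5.89, 5.50 and 7.45 on the control, ORF and 3UTR arrays and was 2.96-fold higher. RBM47, an RNA-binding protein of epithelial cells, stood at 6.21, 6.10 and 7.47. LAMA2, the laminin α2 chain, stood at 5.64, 5.72 and 7.0, and TMEM44 at 6.70, 6.79 and 8.03. A further TMEM44 probe gave 0.63 for the ORF siRNA, so its probes differ there. SIL1, which releases nucleotide from the endoplasmic reticulum chaperone HSPA5, was 2.56-fold higher, CERT1, a ceramide carrier, 2.19-fold, the kinase HIPK2 2.27-fold, and the melanoma antigen family member MAGED1 2.27-fold. Their ORF differences were larger for SIL1 and HIPK2, at 0.62 and 0.70, than for CERT1 and MAGED1, at 0.32 and 0.29. The other probes of HIPK2 and CERT1 have bounds of 1.15 and 1.12. They entered only through the 3UTR array, where they were high, so the filter had a part in this agreement.

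**Figure D3:**
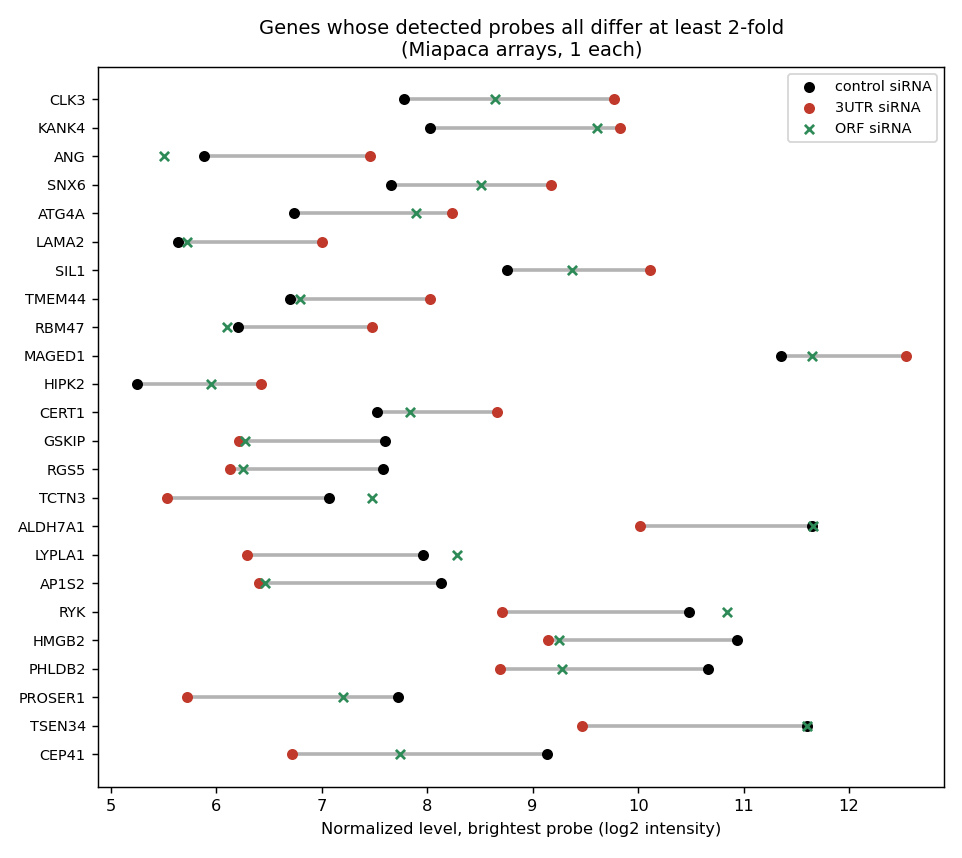
Normalized log2 level (horizontal axis) of the brightest probe of 24 genes, the 12 lower and 12 higher genes with the largest difference shared by all detected probes. Black circles are the control array, red circles the 3UTR array and green crosses the ORF array of Miapaca cells, with 1 array each, and grey bars join control and 3UTR. For TSEN34, RYK and ALDH7A1 the cross lies at or right of the black circle, and for HMGB2, AP1S2 and PHLDB2 it lies toward the red one.

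In 7 genes the probes passed 2-fold in opposite directions. HNRNPDL, an RNA-binding protein, stood at 7.75 and 8.94 by its brightest probe (2.28-fold higher) and at −1.68 by another (7.30 and 5.61), and both probes were detected on both arrays. RPL9, a ribosomal protein with many processed copies in the genome, gave −0.03 by its brightest probe and −1.22 and 1.29 by the other two. For SP3, RABL2A, CRNDE, TMEM267 and SLC26A6 a probe on one side was detected on 1 array and is a bound. RABL2A has a near-identical copy, so its probes may not read it alone. No direction is given for these genes.

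The lowest gene of all was HDGF, a growth factor that acts in the nucleus and binds chromatin. It stood at 10.18 (control), 10.01 (ORF) and 6.16 (3UTR), and was 16.3-fold lower. In BXPC3 it stood at 9.72 with the control and 9.91 with the ORF siRNA, so the 3UTR array alone was low among the 5. The related genes HDGFL3 and PSIP1 stood at −0.60 and −0.12 and HDGFL2 at 0.46. TK1, the cytosolic thymidine kinase that salvages thymidine in S phase, stood at 10.18, 9.48 and 6.77 on the 3 Miapaca arrays and was 10.6-fold lower. COPZ1, the ζ subunit of the COPI vesicle coat, stood at 10.06, 10.45 and 7.29. RNF20, the ligase that ubiquitinates histone H2B, stood at 8.79, 8.45 and 6.29, while RNF40, its partner in that ligase, differed by −0.06. For HDGF, COPZ1 and RNF20 the ORF array lay within 0.39 of the control. Each of these 4 genes was measured by 1 probe.

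EML1, a microtubule-associated protein, stood at 7.84 and 4.83 by its brightest probe, which gives 8.03-fold lower, but its other probe gave −0.36 as a bound. Of the 15 lowest genes, 13 had a single detected probe and 1, POMGNT2, an enzyme of O-mannosyl glycan synthesis, was at least 4.95-fold lower as a bound. VAMP3, a SNARE protein of recycling endosomes, stood at 10.49 (control), 10.76 (ORF) and 8.10 (3UTR). POP5, a protein of the RNase P and RNase MRP enzymes that trim tRNA and ribosomal RNA precursors, stood at 9.29, 9.41 and 7.06. RMRP, the RNA of RNase MRP, was not among the 15 lowest and was at least 4.28-fold lower, with −0.23 for the ORF siRNA. The remaining genes of the 15 were MT1M, CEP41, STK39, DNAJC9, WDR36, DPYD and CFAP97, between 4.63-fold and 5.36-fold lower. DPYD, the enzyme that starts pyrimidine breakdown and clears fluorouracil, stood at 8.84, 7.48 and 6.56, and DNAJC9, a co-chaperone of HSP70 and histones, at 10.88, 10.34 and 8.53.

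**Figure D4:**
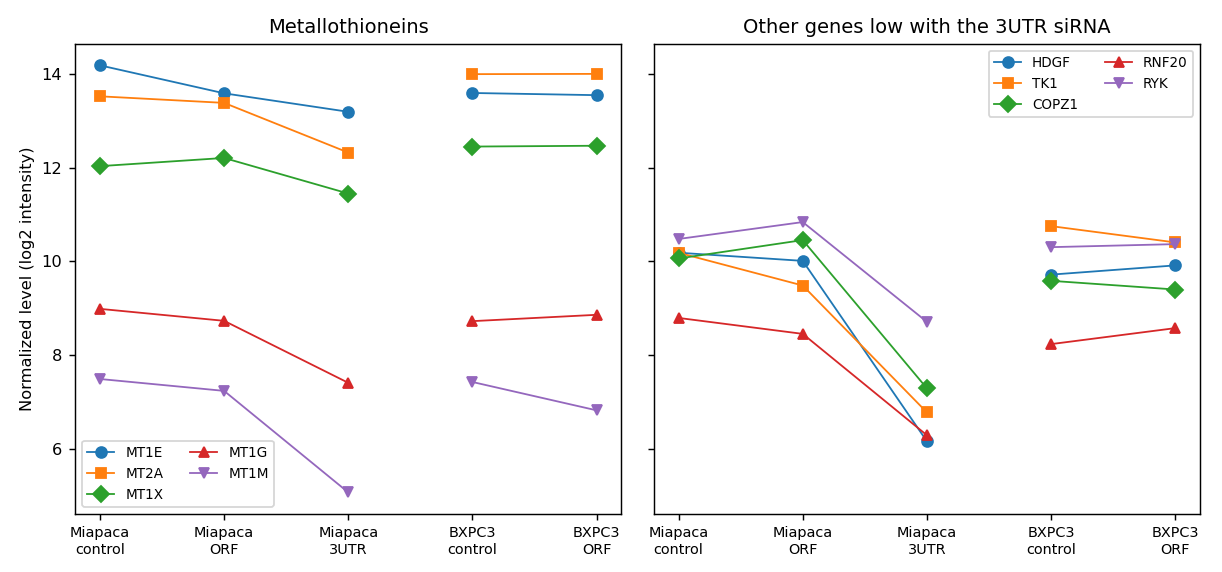
Normalized log2 level (vertical axis) of 5 metallothionein genes (left) and of HDGF, TK1, COPZ1, RNF20 and RYK (right) on the 5 arrays, each point being 1 array and lines joining arrays of 1 line to guide the eye. On the right HDGF drops from 10.18 on the control to 6.16 on the 3UTR array and stands at 10.01 on the ORF array, and on the left MT1M has the widest gap, from 7.49 to 5.07.

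The highest gene was ZNF467, a zinc finger protein, at 5.52 (control), 8.60 (ORF) and 8.42 (3UTR), which is 7.45-fold higher. GALR2, a receptor for the neuropeptide galanin, stood at 4.77, 6.59 and 7.02 and was 4.75-fold higher, while GAL, the galanin gene, stood at 11.13, 10.38 and 10.17. ZNF467 and GALR2 were thus also above the shared control on the ORF array. GALR2 read 113 units of bead intensity with the control and 180 with the 3UTR siRNA. The fitted backgrounds were 99.5 and 92.4, so its control level lay near background and its fold depends on the background correction. LRSAM1, a ubiquitin ligase, stood at 7.42 and 9.59 by its brightest probe (4.53-fold higher), but its dimmer probe has a bound of 0.65. RAB17, a small GTPase of polarized transport, stood at 7.54 and 9.50, MR1, which presents vitamin metabolites to T cells, at 6.83 and 8.77, and BTC, the EGFR ligand betacellulin, at 5.82 and 7.62. BTC differed by 0.32 with the ORF siRNA. Of the 15 highest genes, 9 had a single detected probe. Among the other 6 the dimmer probes of NEDD4, SNX15 and CDYL2 gave 0.57, 0.45 and 0.69, the last a bound. KANK4 and CLK3 were the genes of this group past 2-fold by each probe.

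Genes of DNA replication and mitosis were mostly below the control. Replication needs the loading and firing of the MCM helicase and the polymerases, and mitosis needs kinetochores, the spindle and condensin. Many of these genes are transcribed in phases of the cell cycle under E2F factors and the DREAM and MuvB complexes. Of 43 replication fork and licensing genes, 34 lay below the control, 7 were at least 2-fold lower and 1 higher, with a median of −0.58. Of 50 kinetochore, spindle and cytokinesis genes, 48 lay below, 8 were at least 2-fold lower and none higher, with a median of −0.57. Of 25 mitotic kinase and checkpoint genes, 22 lay below and 4 were at least 2-fold lower, with a median of −0.46, and of 26 homologous recombination and Fanconi genes 18 lay below and 6 were at least 2-fold lower, with a median of −0.36. Over all genes 49.9% lay below and 4.64% were called lower, with a median of 0.00. Relative to the median of all genes, these 4 medians stayed negative under the 11 other settings, between −0.70 and −0.27. The low medians were not particular to the 3UTR siRNA. With the ORF siRNA in Miapaca, read against the same control array, the 4 medians were −0.56, −0.81, −0.69 and −0.55 in the same order. In BXPC3, against its own control, they were −0.28, −0.29, −0.25 and −0.22. As RNA came from whole cultures, fewer dividing cells and less of these RNAs per cell cannot be told apart.

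Within replication, the regulators of licensing differed in direction. GMNN, the inhibitor that blocks re-licensing, stood at 10.05 with the control and 8.36 with the 3UTR siRNA and was 3.22-fold lower. CDT1, the loading factor that GMNN inhibits, stood at 8.70 and 9.72 and was 2.03-fold higher. CDC6, another loading factor, was at least 2.03-fold lower. Among fork enzymes POLD1, the catalytic subunit of polymerase δ, was 2.95-fold lower, LIG1 2.26-fold and PRIM1 2.01-fold, with PRIM1 probes at −1.01 and −0.93. PCNA, the sliding clamp, was 2.75-fold lower by its brightest probe and stood at −0.16 by the other. The helicase subunits MCM2, MCM3 and MCM5 stood at −0.80, −1.17 and −0.71, and MCM6 and CDC45 at 0.02 and 0.03.

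Among mitotic genes WEE1, the kinase that holds CDK1 inactive, had the largest difference, at 8.45 with the control and 6.43 with the 3UTR siRNA (4.06-fold lower). CCNB1, cyclin B1, stood at 9.66, 9.42 and 8.12 on the control, ORF and 3UTR arrays. CCNB2 stood at −0.02 and CDK1 at −0.68. MAD2L1, of the spindle checkpoint, was 2.55-fold lower, with another probe at −0.52, and BUB1B was 2.02-fold lower. CDC20, the target of that checkpoint, stood at 12.41 and 12.86, and PLK1 at 7.12 and 7.60, so both lay above the control. In the kinetochore and spindle list NUF2 stood at 9.11 and 7.47 by its brightest probe, while another lay 0.50 above the control, and SMC4, of condensin, was 2.85-fold lower with another probe at −0.32. DLGAP5 and HMMR, which act on spindle microtubules, were at least 2-fold lower by each of their probes, at −1.12 and −1.68 and at −1.08 and −1.61. In the repair list BLM, the Bloom helicase, stood at 7.17 and 5.51 and was 3.16-fold lower, and FANCB was 2.75-fold lower by its brightest probe, with the other at −1.11.

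The letters TTTGAA, the core of the cell cycle genes homology region that MuvB binds, were searched on both strands of RefSeq promoters (GRCh38.p14, 250 bases before to 50 after the start). They occurred in 32 of 44 kinetochore, spindle and cytokinesis promoters found and in 10 of 19 of the mitotic kinase list, against 15.4% of 27305 promoters. In the kinetochore list the median difference was −0.60 in the 32 genes with the letters and −0.62 in the 12 without. In the mitotic kinase list it was −0.40 in the 10 with the letters and −0.54 in the 8 compared without. The E2F letters TTTCGCGC or TTTGGCGC occurred in 10 of 37 replication promoters, against 1.18% of all. In the nucleotide synthesis list they occurred in 1 of 31 promoters, and not in that of TK1. The median difference was −0.51 in the 10 replication genes with these letters and −0.63 in the 27 without. A match describes the sequence and is not evidence of binding. The windows of 4 genes at least 2-fold lower are shown 5′ to 3′ with 1 TTTGAA each in capitals. ANLN and HMMR hold 2 matches each, and the further match in their windows is in lower case, on the other strand for ANLN. The windows are from chr7:36389834-36389855 (ANLN, plus strand), chr12:6493949-6493970 (NCAPD2, plus), chr5:163460602-163460623 (HMMR, plus) and chr15:40161038-40161059 (BUB1B, plus).
ANLN: aattcaaaTTTGAAcggctgca
NCAPD2: cgttgagaTTTGAActcggtat
HMMR: gatttgaaTTTGAAaccggtag
BUB1B: ccgttaaaTTTGAAacttggcg

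Genes that control entry into the cycle were divided. Of 29 cyclins, CDKs, E2F factors and CDK inhibitors, 18 lay below the control, with 3 at least 2-fold higher, 3 at least 2-fold lower (4.22% and 4.64% of all genes) and a median of −0.15. CCND3, cyclin D3, stood at 10.03 (control), 10.41 (ORF) and 11.65 (3UTR) and was 3.06-fold higher, while CCND1 stood at −0.49. The CDK inhibitors CDKN1A and CDKN2D were 2.37-fold and 2.01-fold higher and CDKN1B stood at 0.08, with another probe at 0.60. SKP2, the ubiquitin ligase subunit that marks CDKN1B for degradation, stood at 11.40 and 9.74 and was 3.18-fold lower, with another probe at −0.62. E2F2 was 2.44-fold lower and E2F1 stood at 0.11. Of 31 nucleotide synthesis genes 16 lay below, and beside TK1 the purine enzyme PFAS was 3.54-fold lower.

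Metallothioneins, small cysteine-rich proteins that bind zinc and copper, were below the control in all 6 members compared, of which 3 passed 2-fold (4.64% of all genes), and the median over the list was −1.10. Their transcription follows free zinc through the factor MTF1, which binds metal response elements near the start site. MT2A stood at 13.53 (control), 13.39 (ORF) and 12.32 (3UTR), and was 2.30-fold lower. MT1G stood at 8.99, 8.73 and 7.41 and MT1M at 7.49, 7.23 and 5.07. In all 3 the ORF array lay within 0.26 of the control and the 3UTR array was the lowest of the 3. MT1X stood at 12.03, 12.21 and 11.45. MT1E, the brightest member, stood at 14.19, 13.59 and 13.20, and its dim second probe gave −0.17. MT4, detected on the control array alone, has a bound of −0.36. Members of the MT1 group are near-identical in sequence, so probes may read each other's RNA. Relative to all genes the list median lay between −1.23 and −0.81 over the 11 other settings.

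The zinc transporters did not follow as a group. Of 18 compared, 10 lay below the control, and the median of the list, which includes MTF1, was −0.10. In this list 2 genes were called lower (11.1%, against 4.64% of all genes) and none higher. SLC39A14, a zinc and manganese importer, stood at 9.86 and 8.43 and was 2.69-fold lower. SLC39A11 was at least 3.89-fold lower. SLC30A1, the zinc exporter that MTF1 also induces, stood at −0.27 with its other probe at −0.54, and MTF1 itself at −0.28. SLC39A10, an importer, stood at −0.74.

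The core letters of the metal response element, TGCACNC or TGCGCNC on either strand, occurred in 5 of 5 metallothionein promoters in the RefSeq table, against 29.3% of 27305 promoters, a short motif being frequent by itself. MT2A held 8 matches, MT1X 4 and MT4 3. A window of each is shown with the core, or its complement for MT4, in capitals, from chr16:56608568-56608583, chr16:56682409-56682431 and chr16:56564975-56564997, all on the plus strand of GRCh38.p14.
MT2A: tgccgcgcTGCACTCc
MT1X: ggggcctcTGCGCCCggccctct
MT4: gctgggccGTGTGCAgggcgtct

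Genes of the integrated stress response lay mostly above the control. In that pathway eIF2α kinases slow translation and raise the factor ATF4, which induces genes of amino acid supply and stress. Of 32 ATF4 target and amino acid response genes, 23 lay above the control (50% of all genes did) and 6 were at least 2-fold higher (4.22% of all genes), with none lower and a median of 0.39, or −0.02 under scaling by the median of all probes, which lowers all genes. The 6 were regulators more than enzymes. TRIB3, a pseudokinase that feeds back on ATF4, stood at 8.60 (control), 9.77 (ORF) and 10.10 (3UTR) and was 2.81-fold higher. SESN2, which restrains mTORC1 when leucine is short, was at least 2.57-fold higher, and PPP1R15A, the phosphatase subunit that reverses eIF2α phosphorylation, 2.18-fold higher. JDP2 was at least 2.16-fold higher, DDIT3, the factor CHOP, 2.08-fold, and DDIT4, an mTORC1 inhibitor, 2.02-fold.

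The enzymes and transporters of the same list were closer to the control. Of the serine synthesis enzymes, PHGDH, PSAT1 and PSPH stood at 0.65, 0.55 and 0.58, with a further PSPH probe at 1.81. ASNS, asparagine synthetase, stood at 0.39 and its other probe at 0.08. ATF4 mRNA itself stood at 12.16 and 12.55. The transporters SLC1A5 and SLC6A9 stood at −0.53 and −0.52, and GDF15 has a bound of −0.49. No tRNA synthetase of 18 was past 2-fold, with a median of 0.15.

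Chaperones of the endoplasmic reticulum (ER) were mixed, with 16 of 27 above the control (50% of all genes), 4 at least 2-fold higher (4.22% of all genes), 1 lower (4.64%) and a median of 0.25, or −0.36 under that scaling. The unfolded protein response induces these genes through ATF6 and XBP1. DNAJB9, a co-chaperone that restrains the sensor IRE1, stood at 7.11 (control), 6.98 (ORF) and 8.64 (3UTR). HSPA5, the main ER HSP70, stood at 7.86, 7.30 and 8.95 and was 2.12-fold higher. For both genes the ORF array lay below the control. SIL1 and MANF, which act on HSPA5, were 2.56-fold and 2.05-fold higher. HSP90B1 stood at 0.64 and CRELD2 at 0.77, while CALR and P4HB stood at 0.11 and −0.13. SSR1, a subunit of the translocon-associated complex, was 2.94-fold lower. Of 22 genes of ER-associated degradation and stress sensing, none was called higher, EDEM1, which directs misfolded glycoproteins to degradation, was 3.12-fold lower and VCP, the segregase, stood just under the threshold on the higher side. XBP1 stood at 0.12.

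The ER stress response element, CCAAT and CCACG with 9 bases between them on either strand, occurred in 6 of 26 ER chaperone promoters, against 0.0806% of all promoters, and in 1 of 23 promoters of ER-associated degradation and sensor genes. The 6 genes with it had a median difference of 0.37 and the 20 without it 0.26. The letters TGATGNAAT of the ATF4 composite element occurred in 1 of 31 promoters of the ATF4 list, against 1.02% of all. Windows of 3 chaperone genes above the control are shown with the element in capitals, read along the gene, from chr9:125241386-125241414 (HSPA5, minus strand), chr22:49918549-49918577 (CRELD2, plus) and chr12:103930316-103930344 (HSP90B1, plus). The element runs on the opposite strand in the last 2.
HSPA5: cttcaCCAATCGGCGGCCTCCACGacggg
CRELD2: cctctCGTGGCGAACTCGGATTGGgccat
HSP90B1: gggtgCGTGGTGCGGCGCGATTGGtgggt

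In the coats of vesicles between ER and Golgi, COPZ1 alone passed 2-fold on the lower side. COPI returns cargo to the ER and COPII carries it forward. Of 19 COPI coat and ARF genes 11 lay above the control, with a median of 0.33, or −0.22 under scaling by the median of all probes. In this list 1 gene was called higher and 1 lower (5.26% each), near the 4.22% and 4.64% of all genes. The other coat subunits COPA, COPB1, COPB2, COPE, COPG1, COPG2 and ARCN1 stood between −0.13 and 0.92, and COPZ2, the paralog of COPZ1, has a bound of 0.69. ARFGAP2, which triggers GTP hydrolysis by ARF1 and so the release of the coat, stood at 6.77 (control), 6.73 (ORF) and 8.21 (3UTR) and was 2.71-fold higher. No COPII gene of 19 was past 2-fold, and the largest difference was 0.98 for SEC23A, whose other probe gave −0.48. The COPI median relative to all genes lay between 0.22 and 0.34 over the 11 other settings.

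**Figure D5:**
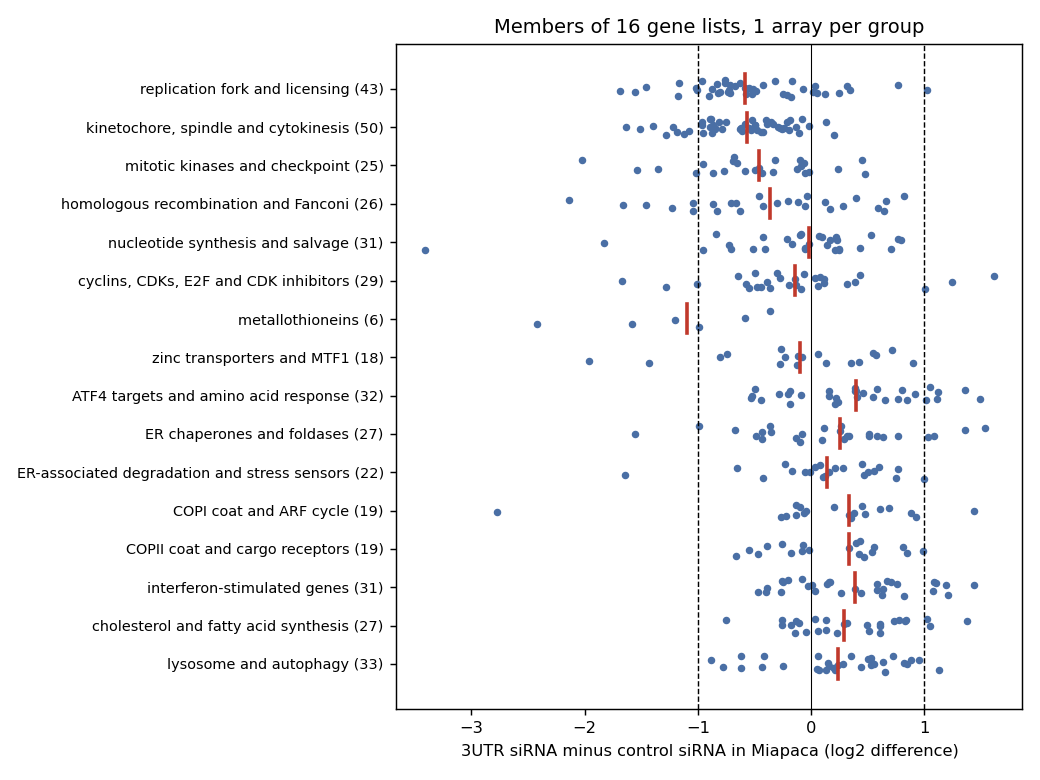
Log2 difference (3UTR minus control, horizontal axis) of the members compared in 16 gene lists, each point being 1 gene by its brightest probe and red bars the list medians. Numbers in brackets are the genes compared, dashed lines mark 2-fold, and the replication and mitosis lists lie left of 0, metallothioneins farthest left at −1.10, and the ATF4 and interferon lists right of 0 at 0.39.

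Of 31 interferon-stimulated genes 22 lay above the control (50% of all genes) and 6 were at least 2-fold higher (4.22% of all genes), with none lower (4.64%) and a median of 0.39, or −0.15 under scaling by the median of all probes. These genes are induced by interferons or by sensors of double-stranded RNA. IFIT3 stood at 5.65 (control), 6.41 (ORF) and 7.09 (3UTR), which is 2.71-fold higher. Its other probes have bounds of 0.60 and 1.56 and entered only through the 3UTR array, where they were high. ISG15, a ubiquitin-like modifier, stood at 8.05, 8.48 and 9.24. IRF1, HERC6, ISG20 and IFIT1 were between 2.11-fold and 2.31-fold higher, and the other IFIT1 probe gave 0.52. Members that are often strongly induced by interferon did not stand with them. MX1 stood at −0.08, IFI44 has a bound of −0.03, OAS3 one of −0.39 and RSAD2 one of −0.26, and IFITM1 and IFITM3 stood at −0.25 and −0.40. Of 14 genes of RNA interference, AGO3 was 2.11-fold higher by its brightest probe, with the other at 0.38, and AGO2 stood at 0.42. PRKRA, a partner of Dicer, and DROSHA were 2.15-fold and 2.06-fold lower. Both were low on the ORF array as well. Bead intensity before normalization was 1245 (control), 491 (ORF) and 400 (3UTR) for PRKRA and 1186, 438 and 396 for DROSHA. The calls made up 7.14% higher and 14.3% lower of this small list, against 4.22% and 4.64% of all genes.

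Lipid and lysosome genes lay mostly above the control. Of 27 cholesterol and fatty acid synthesis genes 19 lay above the control (50% of all genes) and 3 were at least 2-fold higher (4.22% of all genes), with a median of 0.29. SC5D, a late enzyme of cholesterol synthesis, was 2.60-fold higher, ACSS2, which makes acetyl-CoA from acetate, 2.07-fold with 3 probes between 0.97 and 1.19, and ELOVL6, a fatty acid elongase, 2.03-fold. HMGCS1 and FASN stood at 0.73 and 0.78, and SCD at −0.26. Of 33 lysosome and autophagy genes 26 lay above the control, with a median of 0.24, and 1 was called higher, GABARAPL1, an ATG8 protein (2.19-fold). That is 3.03% of the list, below the 4.22% of all genes. Scaling by the median of all probes turned both medians negative, to −0.21 and −0.31, as it did for all genes, and relative to all genes they stayed positive under the 11 other settings, with lower ends of 0.22 and 0.15.

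In the other lists calls were few, beside the 4.22% higher and 4.64% lower of all genes. Of 24 BCL2 family and caspase genes, BCL2, which protects from apoptosis, was at least 2.73-fold lower, and another probe has a bound of −0.68. BCL2L1 stood at −0.95 and BCL2L11, which promotes apoptosis, at 0.88. Of 22 heat shock chaperones HSPA1B was 2.28-fold lower, and its near-identical copy HSPA1A may share the probe. Of 30 proteasome genes PSMD8 was 2.03-fold higher. Among splicing kinases and SR proteins 13 of 19 lay below the control, with SRSF3 2.22-fold lower, its other probe at −0.49, and CLK3 higher as given above. Of 9 nicotinic, muscarinic and Ly6 genes BCHE, the cholinesterase of plasma, stood at 6.63 (control), 4.83 (ORF) and 7.96 (3UTR), with another probe at 0.60, and LY6E stood just under the threshold on the lower side. JUP, plakoglobin, was 2.31-fold higher among 10 epithelial genes and CCN2 2.03-fold higher among 6 mesenchymal genes, with a second CCN2 probe at 0.08.

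Zinc finger genes and RAB GTPases held calls near the shares of all genes, 4.22% higher and 4.64% lower. Of 294 genes named ZNF, 8 were called higher and 16 lower (2.72% and 5.44%), with a median of −0.04. ZNF467 was far from the next highest, ZNF174 at 1.39, whose 3 probes spanned −0.78, a bound, to 1.55. Of 43 RAB GTPases 2 were called higher, RAB17 and RAB35, and 2 lower, RAB8B and RAB36 (4.65% each). Of 54 histone genes 4 were called higher and 2 lower (7.41% and 3.70%). H2AC25 was 3.27-fold and H2BC12 2.14-fold higher, the latter with both probes past 2-fold, while H2AX and H1-5 were 2.85-fold and 2.5-fold lower. Histone genes of a class are near-identical and most of their mRNAs end without a poly(A) tail, while labelling by the Eberwine procedure named in the labels primes on poly(A). Their values, and those of small RNAs, may therefore not follow the total RNA.

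By gene type, 208 long non-coding RNA genes gave 18 higher and 8 lower calls (8.65% and 3.85%), and 157 small nucleolar RNA genes 11 higher and 3 lower (7.01% and 1.91%), against 4.07% and 4.72% of 10209 protein-coding genes. Several of the higher genes, among them LINC02289, LINC00709, ST20 and SNORA58, were detected on the 3UTR array alone. Their differences are bounds, and they entered the comparison only through the array where they were high. How far this shaped the shares by gene type was not tested. SNORA80E stood at 6.54 (control), 9.27 (ORF) and 8.46 (3UTR) and was 3.78-fold higher. SNORA48 and SNORA28 were 2.89-fold and 2.51-fold higher, with larger ORF differences in Miapaca of 2.42 and 2.70. RN7SK, which sequesters P-TEFb, stood at 8.66 and 9.74, with an ORF difference of 2.70. CD27-AS1, at 6.64 and 8.20, was detected on both arrays, and MILIP stood on the lower side at 7.38 and 5.66. The ORF differences of CD27-AS1 and MILIP were −0.004 and −0.74.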

How the data were processed

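RNA was measured on Illumina bead arrays, 1 for each of the 5 groups. The authors deposited mean bead intensity values without normalization, per the file headers, with detection p-values beside them. The sources used here do not say how these p-values were computed, which scanner software was used or whether background was subtracted earlier. The authors also deposited a normalized series matrix of intensity values, which served as an alternative. Of 48107 probes, 1 with a missing value was left out.

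Intensities of all 5 arrays were corrected by normexp on the detection p-values with an offset of 16, quantile-normalized and log2-transformed by the neqc function of limma 3.58.1 under R 4.3.3, after a check on simulated data. Further steps used Python 3.11.15 with pandas 2.3.3, numpy 2.4.6 and matplotlib 3.10.9. Of the probes, 30113 had 1 gene symbol in the platform annotation and 8 had several and were left unnamed. Symbols were updated to RefSeq GRCh38.p14 by accession for 29081 probes and by Entrez identifier for 1011, and 21 were kept, which changed 27. Promoters came from RefSeq and were matched by symbol.

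No test was run, since each group held 1 array. Named genes were the 15 lowest and 15 highest, the 12 in each direction with the largest difference shared by all probes, genes with probes past 2-fold in opposite directions, LYNX1 and SLURP2, and up to 5 members of each list in each direction, or all detected members of lists of 12 genes or fewer. Other genes named with values were chosen after these were seen, as examples of a list or group. The comparison, gene lists and tests were chosen with earlier results of these data known. The 11 alternatives changed background correction, scaling, arrays normalized together, source, detection limit or probe choice. Some members of these lists are not reported here.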

Additional observations from a re-analysis of the deposited data

How the results depend on the processing

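The counts of calls depended on how background and scale were set. Genes at least 2-fold higher numbered 459, and 184 with a normexp offset of 50, 92 without background correction, 84 with median scaling on all probes, 104 in the authors' series matrix values and 964 with median scaling on probes detected on all arrays, the last chosen after seeing the data. Genes at least 2-fold lower numbered 504, and 250, 140, 1982, 147 and 369 in the same order. Genes higher by all probes numbered 18, and 6, 2, 3, 3 and 46, and genes lower by all probes 45, and 23, 15, 228, 15 and 36. List members called higher numbered 47, and 20, 9, 9, 12 and 81, and called lower 66, and 43, 27, 221, 30 and 52. A larger offset and no background correction add to both arrays' signal and so shrink ratios of dim genes by construction.

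Of 138 named genes past 2-fold, 49 stayed past it in all 11 alternatives that gave a value, among them 14 of the 15 lowest and 10 of the 15 highest, and 135 kept their direction. The mean over detected probes turned 3, CRNDE to 0.0026, TMEM267 to −0.24 and HNRNPDL to −0.25, by averaging opposed probes. Of 32 list medians, 21 changed sign in an alternative, and 5 did so relative to all genes. No paired analysis was possible because each group held 1 array, and no replicate could be left out. Depth is set by signal over background, and 1509 genes detected on 1 array have bounds.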

Other observations

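Probes without a gene symbol in the annotation were not used above. Of 2872 such probes detected on both arrays, 69 were at least 2-fold higher with the 3UTR siRNA (2.40%) and 110 at least 2-fold lower (3.83%). The SLURP2 probe, another Ly6 family gene, was not detected on either array of this comparison, at 91.3 and 83.9 units of bead intensity.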
